A study of Sus scrofa with 12 samples.

Results

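ALOX15 and 7 further genes of the lipoxygenase pathway were followed in the ovaries of 6 sows, as 8 of the 29884 genes in the table. The other 7 were ALOX5, ALOX12, ALOX5AP, LTA4H, LTC4S, CYSLTR1 and PLA2G4A, each found by its exact symbol. ALOX15 was chosen by its measured values, close to 30 FPKM in 2 ovaries and under 0.1 FPKM in the other 4, so its levels are given as a description without a test. FPKM is a read count divided by transcript length and library size, a scale on which genes of different length can be set side by side. The study compared left ovaries of multiparous sows with small litters (SLS, 8.48 ± 0.53 piglets on average, ovaries ZD2, ZD3 and ZD12) and with large litters (LLS, 16.19 ± 0.43 piglets, ovaries ZD5, ZD7 and ZD8). The sows of both groups came from 1 commercial herd and were slaughtered 4 days after delivery number 4, with no treatment named. Each ovary is 1 animal and gave 1 total RNA library and 1 small RNA library.

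Lipoxygenases add oxygen to polyunsaturated fatty acids such as arachidonic acid, which phospholipases first release from membranes. ALOX5, with its helper protein ALOX5AP, starts the synthesis of leukotrienes, and LTA4H and LTC4S complete leukotriene B4 and the cysteinyl leukotrienes, the latter read by the receptor CYSLTR1. ALOX15 makes hydroxy fatty acids and precursors of lipoxins. It can also oxidize lipids within membranes, and it is known from reticulocytes, eosinophils, airway epithelium and macrophages stimulated with IL4 or IL13. In the ovary, lipoxygenase products have been studied around ovulation and in the corpus luteum.

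The library sizes behind the values, worked out from the values themselves, were 32272803 (ZD8) to 60903268 (ZD2) reads for genes. For the small RNA libraries they were 3537619 to 9854086 reads. Whether these sizes count all mapped reads or a part of them is not given in the sources used here. ZD8 stood apart from the other 5 ovaries, since the summed level of 7 marker genes of luteal cells was 124 FPKM there and 9167 to 12191 FPKM in the others. The summed level of theca markers was 415 FPKM in ZD8 against 9.31 to 74.4 FPKM, and that of oocyte markers was 124 FPKM against 6.47 to 22.7 FPKM, so every ovary held RNA of ovarian cell types, in different proportions. In such whole tissue, fewer cells of a type and less RNA per cell cannot be told apart. The granulosa markers FSHR and AMH were lowest in ZD2 and ZD3, at 0.263 and 0.202 FPKM and at 0.208 and 0.346 FPKM. They spanned 1.11 to 10.8 FPKM and 1.69 to 12 FPKM in the others, with ZD12 second to ZD8. INHA and FOXL2 of this list did not split the ovaries in this way, and CYP19A1 did not exceed 0.0137 FPKM. The relation of these genes to ALOX15 was not tested.

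The gene ALOX15 lies on the plus strand at chr12:52287174-52295873 of Sscrofa11.1, with 14 exons in its longest transcript, and no other annotated gene overlaps it. The annotation gives it 2 transcripts whose starts are 603 bases apart, the first of 2901 nt and the second of 3684 nt. Which start was used in these ovaries was not tested, so the word promoter below names a window before an annotated start only. The 250 bases before the first of these starts, on the plus strand at chr12:52286924-52287173, are shown because ALOX15 was the member whose RNA was nearly absent in 4 ovaries. Capitals mark GGGCGG, the letters of a GC box, read on either strand.
ALOX15 promoter: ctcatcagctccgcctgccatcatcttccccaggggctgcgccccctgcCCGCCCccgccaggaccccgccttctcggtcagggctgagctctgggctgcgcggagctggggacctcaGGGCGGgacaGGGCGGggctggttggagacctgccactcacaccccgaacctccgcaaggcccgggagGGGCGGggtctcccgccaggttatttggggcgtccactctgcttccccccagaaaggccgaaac
The window was rich in G and C (71.2%) and held 4 GC boxes, with their bases 201 to 196, 132 to 127, 122 to 117 and 64 to 59 before the start. The pattern TTCNNNNGAA that STAT6 binds, with N for any base, was not found on either strand. Nor was AGATAA, to which GATA factors bind. TATAAA, the letters of a TATA box, was missing as well. Among the windows of the same length before 20651 genes, 44.5% held GGGCGG, 4.96% TTCNNNNGAA, 8.63% AGATAA and 10.4% TATAAA. The window before the second start of ALOX15 held none of the 4 patterns. Of the other members, LTA4H had a TTCNNNNGAA match, 241 to 232 bases before its start, and ALOX5 had 8 matches of GGGCGG, some of which share bases. A match describes the letters only.

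ALOX15 was present at a high level in ovaries ZD2 and ZD3 and close to 0 in the others. In SLS its level was 30.4 FPKM in ZD2, 29.8 FPKM in ZD3 and 0.0205 FPKM in ZD12. In LLS it was 0.0236 FPKM in ZD5, 0.058 FPKM in ZD7 and 0 FPKM in ZD8. Behind these values stood 6818, 5668 and 4 reads in SLS and 5, 13 and 0 reads in LLS. Thus the third SLS ovary, ZD12, fell among the LLS ovaries, and the groups overlapped.

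The 95% exact Poisson intervals, which cover counting error only, were 29.7 to 31.1 FPKM in ZD2 and 29 to 30.5 FPKM in ZD3, and these overlap. The interval of ZD7, the highest of the other 4, was 0.0309 to 0.0991 FPKM. In ZD8, where no read was counted, 3 reads would have given 0.0252 FPKM. The lower of ZD2 and ZD3 was 513 times the highest of the other 4 ovaries. ALOX15 ranked 2020 and 2038 among all genes by FPKM in ZD2 and ZD3, and 16822 or lower elsewhere. The group means of 20.1 ± 17.4 FPKM in SLS and 0.0272 ± 0.0292 FPKM in LLS (SD, n = 3) therefore stand for no single SLS ovary. On the log2(FPKM + 1) scale the group difference of LLS from SLS was -3.28, and it was -4.92 without ZD12, -2.45 without ZD2 and -2.46 without ZD3. The deposited values matched whole reads with the longer transcript of 3684 nt, and with the shorter one of 2901 nt each value would be 1.27 times higher.

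**Figure D1:**
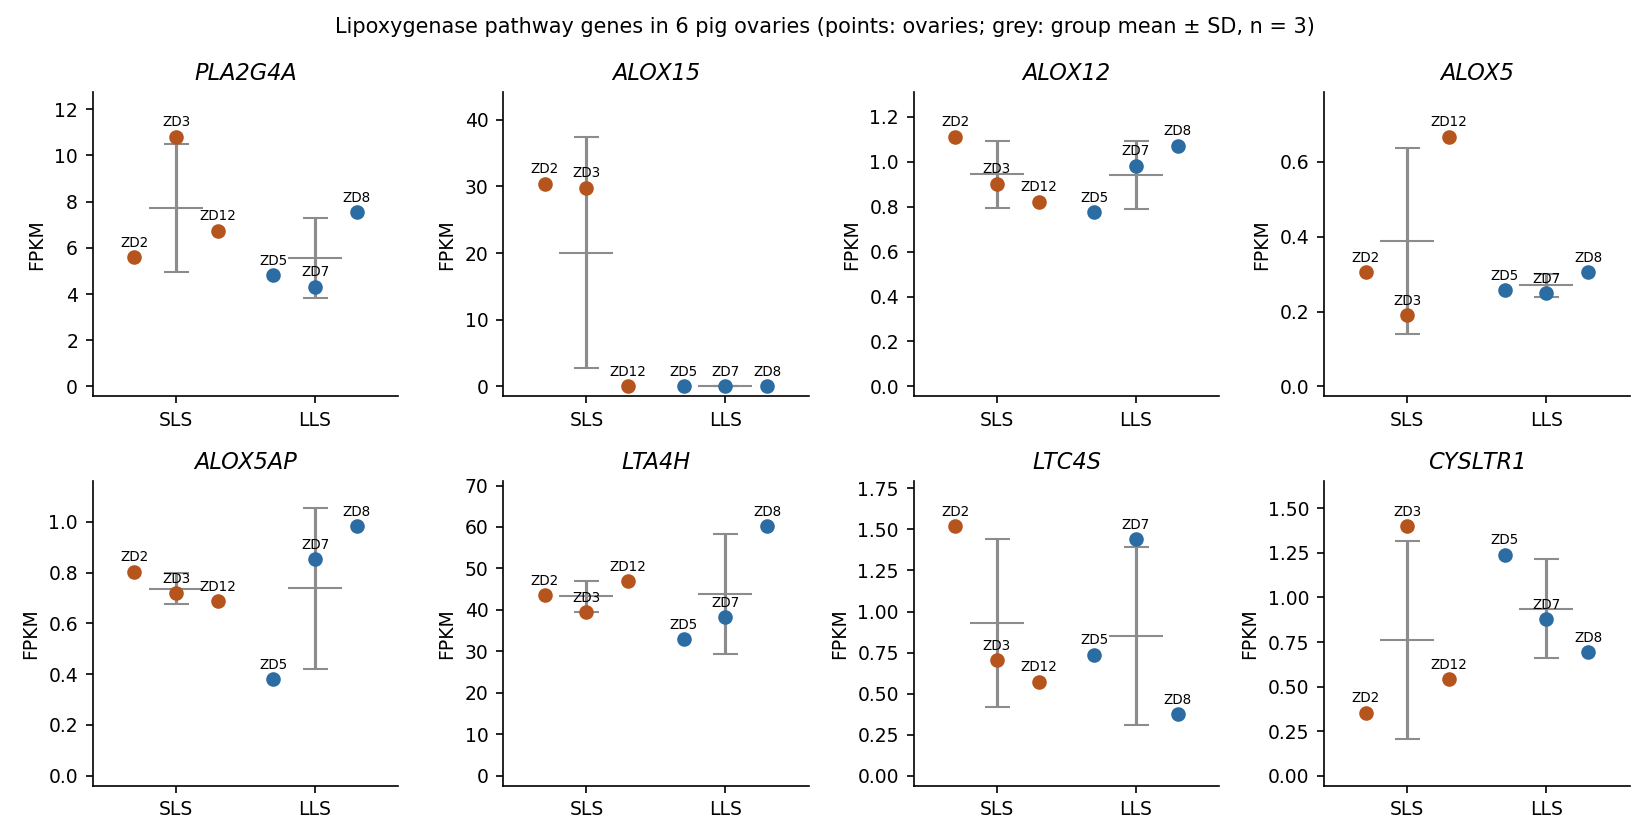
Level in FPKM of the 8 members by group, on axes of their own. Points are ovaries, grey marks the group mean ± SD (n = 3), and ALOX15 separates ZD2 and ZD3 (30.4 and 29.8 FPKM) from the other 4 ovaries, while the groups overlap for every member.

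The other lipoxygenases did not share this pattern. ALOX12, the platelet type enzyme encoded at chr12:52401861-52414913 on the same strand, was at 1.11, 0.901 and 0.821 FPKM in ZD2, ZD3 and ZD12 and at 0.775, 0.982 and 1.07 FPKM in ZD5, ZD7 and ZD8. Its groups overlapped throughout, and its 6 values spanned only 0.775 to 1.11 FPKM. An annotated long noncoding RNA overlaps 629 bp of ALOX12 on the opposite strand, so these values are uncertain where strand was not used in counting. The difference of LLS from SLS for ALOX12 was -0.0012 on the log2(FPKM + 1) scale (exact permutation test, two-sided, p = 1).

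ALOX5, the first enzyme of leukotriene synthesis (chr14:90859209-90907084, minus strand), was at 0.305, 0.19 and 0.666 FPKM in ZD2, ZD3 and ZD12 and at 0.257, 0.249 and 0.305 FPKM in ZD5, ZD7 and ZD8. ZD12, with ALOX15 close to 0, had the highest ALOX5, and ZD3 the lowest. The log2 difference of LLS from SLS was -0.11 (exact permutation test, two-sided, p = 0.8) from 26 to 93 reads per ovary, and it was 0.03 without ZD12. With 3 ovaries against 3, this test cannot give a p below 0.1.

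ALOX12B and ALOXE3, lipoxygenases of the skin barrier, were no members and did not exceed 0.157 and 0.17 FPKM. Summed over the 5 lipoxygenases measured, the level was 32 and 30.9 FPKM in ZD2 and ZD3, 1.66 FPKM in ZD12 and 1.28 to 1.53 FPKM in LLS. ALOX15 made up 95.1% and 96.3% of that sum in ZD2 and ZD3 and at most 4.25% in the others. Where ALOX15 was low, ALOX12 was the leading lipoxygenase, with 49.5% in ZD12 and 60.7% to 71.9% in LLS. The ALOX15 level was 27.4 and 33 times that of ALOX12 in ZD2 and ZD3. Identity of the coding sequences with ALOX15 was 70.1% for ALOX12 and 58.3% to 60.1% for the other 3, with the longest identical run at 21 nt. Whether reads of 1 lipoxygenase were counted on another was not tested.

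**Figure D2:**
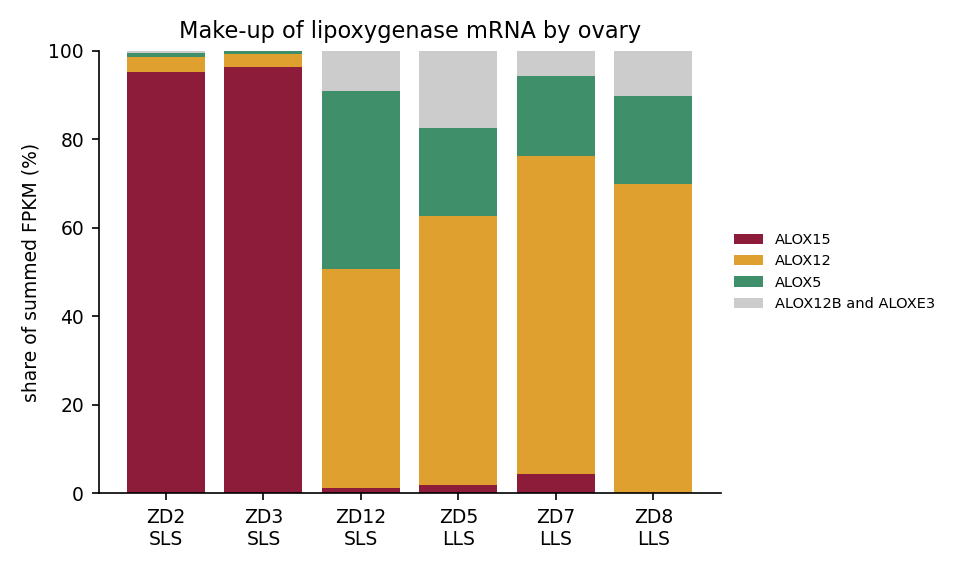
Share (%) of each lipoxygenase in the summed FPKM of the 5 lipoxygenases measured, by ovary. ALOX15 takes 95.1% and 96.3% in ZD2 and ZD3, and ALOX12 is the largest share in the other 4 ovaries.

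The 3 nearest protein-coding genes on each side of ALOX15 on chromosome 12 had levels of their own in the 6 ovaries. PELP1, a coregulator of nuclear receptors that ends 57746 bp before ALOX15, was at 16.1, 8.93 and 15.5 FPKM in ZD2, ZD3 and ZD12 and at 10.4, 13.3 and 19.6 FPKM in LLS. The other 2 protein-coding genes before it, MED11 (a Mediator subunit) and ARRB2 (an arrestin), spanned 3.75 to 7.22 FPKM and 3.4 to 9.43 FPKM. The nearest protein-coding gene after it was ALOX12 itself, 105987 bp away. RNASEK, an RNase of the kappa family, was at 37.4 FPKM in ZD8 and at 193 to 274 FPKM in the others, and C12H17orf49 spanned 15.9 to 27.6 FPKM. In none of these 6 genes were ZD2 and ZD3 both among the 2 highest ovaries, and over all genes tested the share for which they were is 2.19% (269 of 12260).

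**Figure D3:**
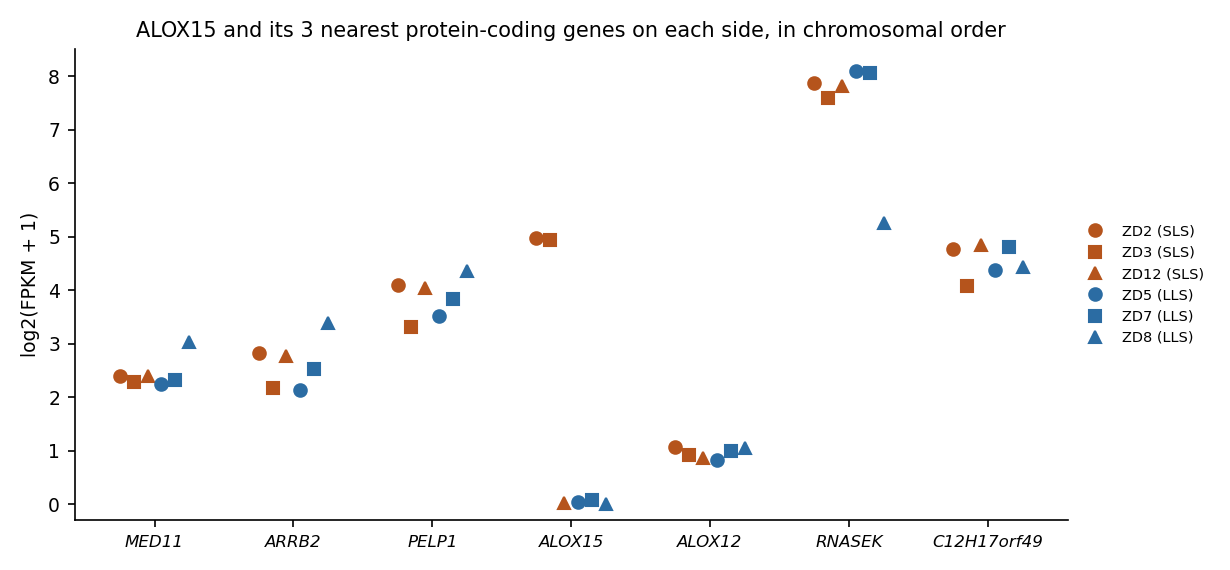
Level, as log2(FPKM + 1), of ALOX15 and of the 3 nearest protein-coding genes on each side, ordered along the chromosome without regard to distance. Each symbol is 1 ovary, and ALOX15 alone shows 2 ovaries far above the other 4.

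PLA2G4A, the cytosolic phospholipase that releases arachidonic acid (chr9:127853581-128164825, plus strand), was at 5.59, 10.8 and 6.74 FPKM in ZD2, ZD3 and ZD12 and at 4.81, 4.31 and 7.53 FPKM in ZD5, ZD7 and ZD8. ZD3 was the highest, and ZD8 lay above ZD2 and ZD12, so the groups overlapped. The mean was 7.72 ± 2.75 FPKM in SLS and 5.55 ± 1.74 FPKM in LLS (SD, n = 3). The log2 difference of LLS from SLS was -0.40 (SE 0.33, 95% interval -1.16 to 0.36), which did not pass the test by limma (adjusted p = 0.999, exact permutation p = 0.3). Without ZD8 it was -0.61 and without ZD3 -0.16. The first 5286 bp of PLA2G4A overlap PTGS2 on the opposite strand, and how strand was used in counting is not given in the sources used here.

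LTA4H, the hydrolase that makes leukotriene B4 (chr5:87486552-87518520, plus strand), had the highest level of the 8 members in each ovary. It was at 43.5, 39.4 and 46.9 FPKM in ZD2, ZD3 and ZD12 and at 32.9, 38.3 and 60.2 FPKM in ZD5, ZD7 and ZD8. Both the lowest and the highest ovary belonged to LLS, and the SLS ovaries lay between them. The log2 difference of LLS from SLS was -0.03 (SE 0.30, 95% interval -0.72 to 0.67) and did not pass the test by limma (adjusted p = 0.999, exact permutation p = 0.9). It was -0.27 without ZD8, 0.15 without ZD5, and 0.12 after quantile normalization, so no direction can be given. An annotated long noncoding RNA covers the whole gene on the opposite strand, so its value is uncertain where strand was not used.

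ALOX5AP, which presents arachidonic acid to ALOX5 (chr11:7371328-7438111, plus strand), was at 0.804, 0.718 and 0.687 FPKM in ZD2, ZD3 and ZD12 and at 0.38, 0.853 and 0.983 FPKM in ZD5, ZD7 and ZD8. The 3 SLS values lay between those of ZD5 and ZD7. The log2 difference of -0.01 turned to 0.14 without ZD5 (exact permutation test of all 6, two-sided, p = 1).

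LTC4S, the synthase of the first cysteinyl leukotriene (chr2:78799446-78802281, minus strand), was at 1.52, 0.702 and 0.572 FPKM in ZD2, ZD3 and ZD12 and at 0.736, 1.44 and 0.375 FPKM in ZD5, ZD7 and ZD8. Its highest values came from 1 ovary of each group. With 8 to 61 reads per ovary it was among the least precise members, and the log2 difference of -0.07 (exact permutation test, two-sided, p = 0.8) turned to 0.14 without ZD2 and to 0.12 without ZD8. Another annotated transcript runs over 2592 bp of it on the opposite strand.

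CYSLTR1, a receptor of cysteinyl leukotrienes (chrX:62380778-62407736, minus strand), was at 0.354, 1.4 and 0.541 FPKM in ZD2, ZD3 and ZD12 and at 1.24, 0.877 and 0.694 FPKM in ZD5, ZD7 and ZD8. ZD2 and ZD3, alike in ALOX15, held the lowest and the highest CYSLTR1 level. The log2 difference was 0.17 (exact permutation test, two-sided, p = 0.6), 0.41 without ZD3 and 0.0015 without ZD2.

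By their median over the 6 ovaries, the members ranked LTA4H (41.4 FPKM), PLA2G4A (6.17), ALOX12 (0.941), CYSLTR1 (0.786), ALOX5AP (0.761), LTC4S (0.719), ALOX5 (0.281) and ALOX15 (0.0408). The ranges of LTA4H and PLA2G4A did not overlap each other, nor did those of PLA2G4A and ALOX12. From ALOX12 on, each member's range overlapped that of the next, so the order of adjacent members is not settled by these ovaries. Members further apart can differ, as the ranges of ALOX12 (0.775 to 1.11 FPKM) and ALOX5 (0.19 to 0.666 FPKM) did not overlap.

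Only LTA4H and PLA2G4A reached 1 FPKM in at least 3 libraries, the limit for the limma test across genes. Neither was called at an adjusted p under 0.05 with a log2 difference beyond 1, and the share called among all 12260 genes tested was 0%. Neither had an unadjusted p under 0.05, against 1.76% of those genes (216). Groups that did not overlap were seen for neither of them, and for 5.12% of the genes tested. The groups of the other 6 members, below the limit, overlapped as well, which for ALOX15 follows from the values that chose it. When every gene above 0 FPKM was tested without the limit, the 7 members other than ALOX15 again gave no call, and 0 had an unadjusted p under 0.05. Over all 23564 genes of that fit, 0 were called and 416 had an unadjusted p under 0.05, so few are awaited among 7.

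The wider pathway held 58 listed genes, with the members other than ALOX15 among them, of which 50 were in the table and 25 were tested. None was called, and 2 had an unadjusted p under 0.05, against 1.76% of all genes tested (216 of 12260). The median log2 difference of LLS from SLS was -0.21, with 17 of 25 genes below 0, against a median of 0.02 over all genes tested, of which 5814 of 12260 were below 0. Without ZD8 the median of the same 25 genes was -0.0033, with 13 below 0, so that the lean to lower values in LLS rested on ZD8, and the median over all genes was -0.10. By role, the median was -0.14 for 10 genes of fatty acid release (0.20 without ZD8), -0.40 for 5 genes of leukotriene synthesis (-0.16), 0.24 for 2 receptors (0.53) and -0.18 for 7 genes of breakdown and export (-0.20). Groups that did not overlap were seen for 1 tested gene higher in LLS, CYSLTR2, and 2 lower, GPX1 and PTGS2, or 3 of 25 against 5.12% of all genes tested (239 higher and 389 lower). PTGS2 reached 1 FPKM only in the 3 SLS ovaries, so the limit for testing fixed its lack of overlap in advance. With so few genes, these counts are a description.

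CYSLTR2, the other receptor of cysteinyl leukotrienes, was at 1.21, 1.76 and 0.539 FPKM in ZD2, ZD3 and ZD12 and at 3.39, 2.78 and 2.22 FPKM in ZD5, ZD7 and ZD8. Every LLS ovary was above every SLS ovary, in contrast with the overlap seen for CYSLTR1. The log2 difference was 0.84 (SE 0.32, 95% interval 0.11 to 1.56), but it did not pass the test over all genes by limma (p = 0.0291, adjusted p = 0.999, exact permutation p = 0.1). Without ZD8 it was 0.95. Whether CYSLTR2 and CYSLTR1 differ in this was not tested.

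GPX1, a peroxidase that reduces lipid hydroperoxides and hydrogen peroxide, was at 547, 340 and 614 FPKM in ZD2, ZD3 and ZD12 and at 201, 264 and 116 FPKM in ZD5, ZD7 and ZD8. The groups did not overlap, and the lowest value was in ZD8. The log2 difference was -1.40 (SE 0.47), or -1.07 without ZD8, and it did not pass (p = 0.0168, adjusted p = 0.999 by limma, 0.798 by DESeq2, exact permutation p = 0.1). GPX4, the peroxidase of membrane phospholipids, was at 125, 94.3 and 165 FPKM in SLS and at 116, 143 and 64.6 FPKM in LLS, where the groups overlapped.

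PTGS2, the inducible cyclooxygenase that uses the same fatty acid, was at 1.44, 1.81 and 1.21 FPKM in ZD2, ZD3 and ZD12 and at 0.87, 0.609 and 0.343 FPKM in ZD5, ZD7 and ZD8. It was lower in every LLS ovary than in any SLS ovary, on a locus that shares bases with PLA2G4A on the other strand, with a log2 difference of -0.64 (SE 0.28), or -0.51 without ZD8, that did not pass the test (p = 0.0503, adjusted p = 0.999 by limma, exact permutation p = 0.1). As PTGS2 passed the limit for testing only through the SLS ovaries, where it was high, these values are a description. HPGD, which inactivates hydroxy fatty acids and prostaglandins, was below the limit for testing. Its level was 0.391, 0.417 and 0.332 FPKM in SLS and 0.833, 0.568 and 0.609 FPKM in LLS, without overlap (exact permutation p = 0.1, the smallest possible). Of the 24 pathway genes above 0 FPKM but below the limit, PLA2G4F, a cytosolic phospholipase, was the other 1 without overlap, at 0.0281, 0.0365 and 0.104 FPKM in SLS and 0.182, 0.304 and 0.446 FPKM in LLS. Among all 11304 genes of this kind, 4.39% had groups that did not overlap.

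Some pathway genes followed ZD8 rather than the litter groups. ACSL4, which activates arachidonic acid, was at 10.6 FPKM in ZD8 and 144 to 509 FPKM in the other 5. GGT1, which trims cysteinyl leukotrienes, was at 14.7 FPKM in ZD8 and 206 to 486 FPKM in the others. The summed luteal markers and 6 of their 7 genes were also lowest in ZD8, whereas PRLR, the prolactin receptor, was highest there (1.16 FPKM against 0 to 0.167 FPKM). Their part in these values was not tested.

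**Figure D4:**
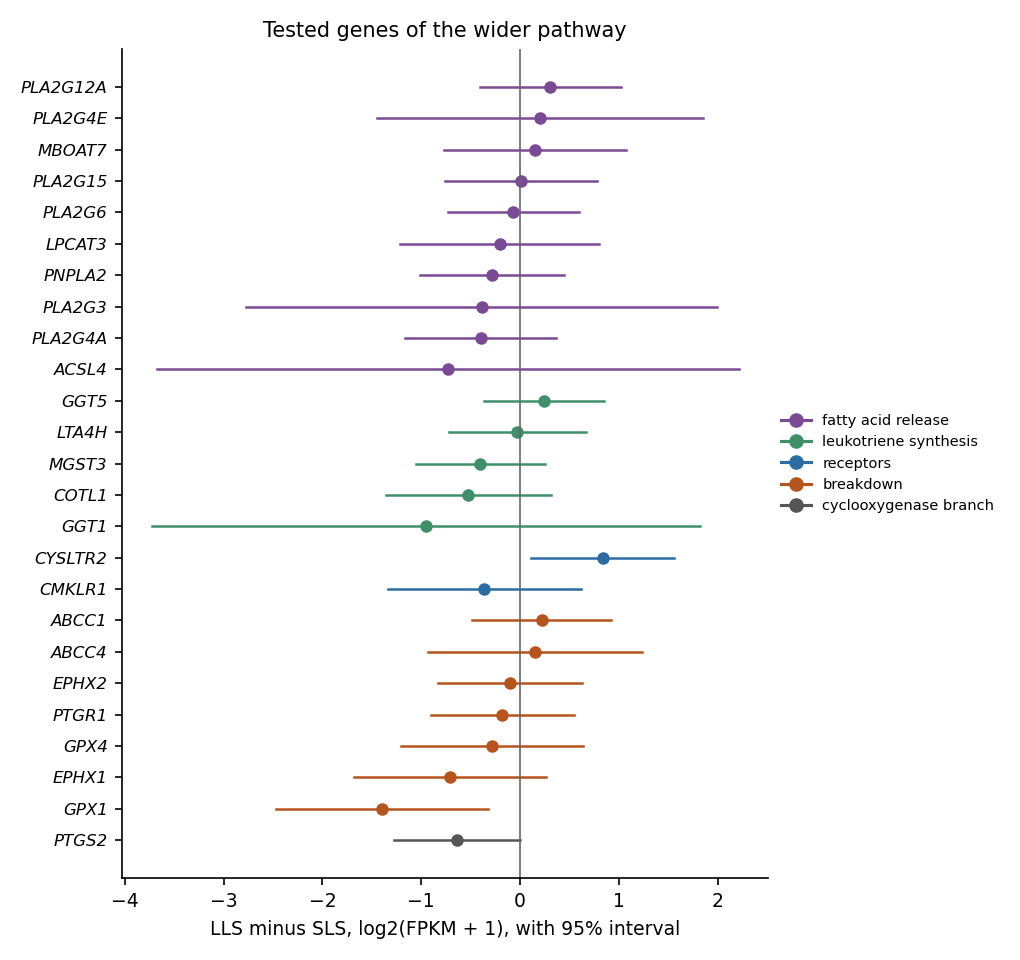
Difference of LLS from SLS in log2(FPKM + 1), with its 95% interval by limma, for the 25 tested genes of the wider pathway, coloured by role. The intervals of CYSLTR2 and GPX1 alone leave out 0, and none of the 25 genes was called after adjustment over all genes.

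As IL4 and IL13 are known inducers of ALOX15, the genes of their pathway were compared with it. IL4 was listed at 0 in all 6 ovaries, and IL13 did not exceed 0.0309 FPKM. The receptor chain IL4R was at 31.9, 21.3 and 20.5 FPKM in ZD2, ZD3 and ZD12 and at 14.4, 31.4 and 7.84 FPKM in ZD5, ZD7 and ZD8, with ZD2 and ZD7 the highest. STAT6, the factor that acts below this receptor, spanned 19.2 to 28.3 FPKM, with its lowest level in ZD3. Of 9 tested genes in this list, 0 were called and the median log2 difference was -0.13, or -0.24 without ZD8. Over all 12260 genes tested, 0 were called as well, and the median was 0.02, or -0.10 without ZD8. Of 8 tested genes of alternatively activated macrophages, 0 were called, with a median of -0.17, or -0.32 without ZD8. The log2 differences of these 8 genes ran from -0.89 for F13A1, a coagulation factor subunit, to 0.58 for CCL26, a chemokine, which turned to -0.33 without ZD8. In neither list were ZD2 and ZD3 the 2 highest ovaries for any gene, which is also rare over all genes tested (2.19%). The part of this signalling or of such macrophages in the ALOX15 level was not tested.

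Markers of cells that can carry ALOX15 were set beside its level. The sum of the 10 macrophage markers was 141, 66.1 and 126 FPKM in ZD2, ZD3 and ZD12 and 98.9 to 125 FPKM in LLS, so ZD3 was the lowest of all ovaries. Of 7 eosinophil markers 3 were in the table, with sums of 0.0628 to 0.222 FPKM in SLS and 0 to 0.096 FPKM in LLS. EPX, the eosinophil peroxidase, was at 0.073 and 0.0502 FPKM in ZD2 and ZD3 and at 0.21 FPKM in ZD12. The neutrophil markers MPO and ELANE were at 0 in all 6 ovaries, and the sum of 7 such markers was 1.16 to 5.18 FPKM, with its highest value in ZD8, where S100A8 was at 3.61 FPKM. CSF3R, the receptor of granulocyte colony-stimulating factor, was at 0.593, 0.344 and 0.314 FPKM in ZD2, ZD3 and ZD12 and at 0.0911 to 0.254 FPKM in LLS. Of the 8 eosinophil and neutrophil markers above 0 FPKM, all below the limit for testing, 3 (CSF3R, S100A9 and EPX) had groups that did not overlap, each higher in SLS. Over all genes below the limit the share was 4.39%, counted in either direction. In none of these 3 sums were ZD2 and ZD3 the 2 highest ovaries, while gene by gene they were so for CSF3R alone. The part of these cells in the ALOX15 level was not tested.

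The epithelial sum was 57.9 FPKM in ZD2 and 8.82 FPKM in ZD3, the highest and the lowest of the 6 ovaries, but its genes did not move together. EPCAM, an adhesion molecule, was at 0.312, 0.339 and 1.28 FPKM in ZD2, ZD3 and ZD12 and at 27.8, 9.73 and 2.31 FPKM in ZD5, ZD7 and ZD8, higher in LLS without overlap. Its log2 difference of 2.66 (SE 0.70) did not pass by limma (adjusted p = 0.999, exact permutation p = 0.1). EPCAM passed by DESeq2 (adjusted p = 0.000595) and with array weights (0.025). In simulated data of wide spread, DESeq2 gave 30 false calls beside 77 true ones at a log2 change of 2. KRT18, a keratin, was at 6.3 and 0.431 FPKM in ZD2 and ZD3, the 2 highest, and at 0 to 0.237 FPKM in the others. The erythroid sum was 320 and 64.9 FPKM in ZD2 and ZD3, 54.3 FPKM in ZD12 and 56.3, 161 and 29.9 FPKM in LLS. Nearly all of it was HBB, the beta globin chain, at 314 FPKM in ZD2 and 157 FPKM in ZD7. In ZD3 it was at 63.1 FPKM. The luteal sum was 9605 and 10808 FPKM in ZD2 and ZD3 and 9167 to 12191 FPKM in ZD12, ZD5 and ZD7. LHCGR, the receptor of luteinizing hormone in this list, was at 27.8 and 70.5 FPKM in ZD2 and ZD3 and at 22.5 to 46.1 FPKM in these 3. The part of these cells in the ALOX15 level was likewise not tested.

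MicroRNAs of blood cells were then examined in the small RNA libraries. MiR-451 and miR-144 are made from 1 locus in red cell precursors, and miR-142 and miR-223 are abundant in white blood cells. Their mature sequences are shown because these microRNAs were the ones of 9 listed for blood cells in which ZD2 and ZD3 had the 2 highest levels. They are those of the deposited table, 5' to 3', with the seed, bases 2 to 8, in capitals and T written for U.
miR-451: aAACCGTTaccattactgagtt
miR-144: tACAGTATagatgatgtac
miR-142-5p: cATAAAGTagaaagcactact
miR-142-3p: tGTAGTGTttcctactttatgg
miR-223: tGTCAGTTtgtcaaatacccc
The 5 seeds differ from each other. The level of miR-451 was 59104, 15530 and 1900 RPM (reads scaled to the library total) in ZD2, ZD3 and ZD12 and 9369, 7552 and 361 RPM in ZD5, ZD7 and ZD8. MiR-142-5p was at 1434, 632 and 165 RPM in SLS and at 430, 498 and 309 RPM in LLS. MiR-223 was at 47.8, 156 and 30.3 RPM in SLS and at 43.3, 33.8 and 12.9 RPM in LLS.

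ZD2 and ZD3 were thus highest for miR-451, miR-144, miR-142-5p, miR-142-3p and miR-223, or 5 of 9 (55.6%), against 28 of the 353 microRNAs with at least 1 RPM in 3 libraries (7.93%) and 269 of 12260 genes (2.19%). These 5 come from 3 loci, since miR-451 and miR-144 share a locus and the 2 forms of miR-142 are arms of 1 hairpin, so they are not 5 separate observations. As with ALOX15, ZD12 was not with them, and it held the lowest level of miR-142-5p. The gaps were of another size, since ALOX15 in ZD3 was 513 times the highest of the other 4 ovaries, while miR-451 in ZD3 (15530 RPM) stood above ZD5 at 9369 RPM. The gap of miR-451 was the widest of the 5 microRNAs. MiR-142-3p in ZD3 (497 RPM) was close to ZD7 (462 RPM). MiR-223 in ZD2 (47.8 RPM, 279 reads) was close to ZD5 (43.3 RPM, 267 reads), so the count of 5 rests in part on near ties. The other 4, miR-150, miR-155-5p, miR-146a-5p and miR-146b, were not highest in both ovaries. The part of blood cells in the ALOX15 level was not tested.

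Likeness to ALOX15 was measured by Pearson's r of log2(FPKM + 1) over the 6 ovaries, among 11869 named genes with at least 1 FPKM in 2 ovaries. With 2 ovaries high and 4 close to 0, r mainly reads the gap between these, and the 6 points share their libraries with all genes, so r is a description. The 6 most like genes were PDE4B (r = 0.979), UPK1B (0.971), MIR9788-2 (0.963), ITGA4 (0.961), SLPI (0.956) and FAM129A (0.945). PDE4B, a phosphodiesterase that degrades cyclic AMP, was at 5.44 and 5.68 FPKM in ZD2 and ZD3 and at 2.27 to 2.9 FPKM in the others. SLPI, a secreted inhibitor of leukocyte proteases, was at 10.6 and 11.2 FPKM in ZD2 and ZD3, 2.1 FPKM in ZD12 and 0.469 to 1.93 FPKM in LLS. ITGA4, an integrin chain of leukocytes, was at 1.69 FPKM in both and at 0.974 to 1.19 FPKM in the others. The gap between ZD2 and ZD3 and the next ovary was 1.88 times for PDE4B, 5.04 times for SLPI and 1.42 times for ITGA4, against 513 times for ALOX15.

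**Figure D5:**
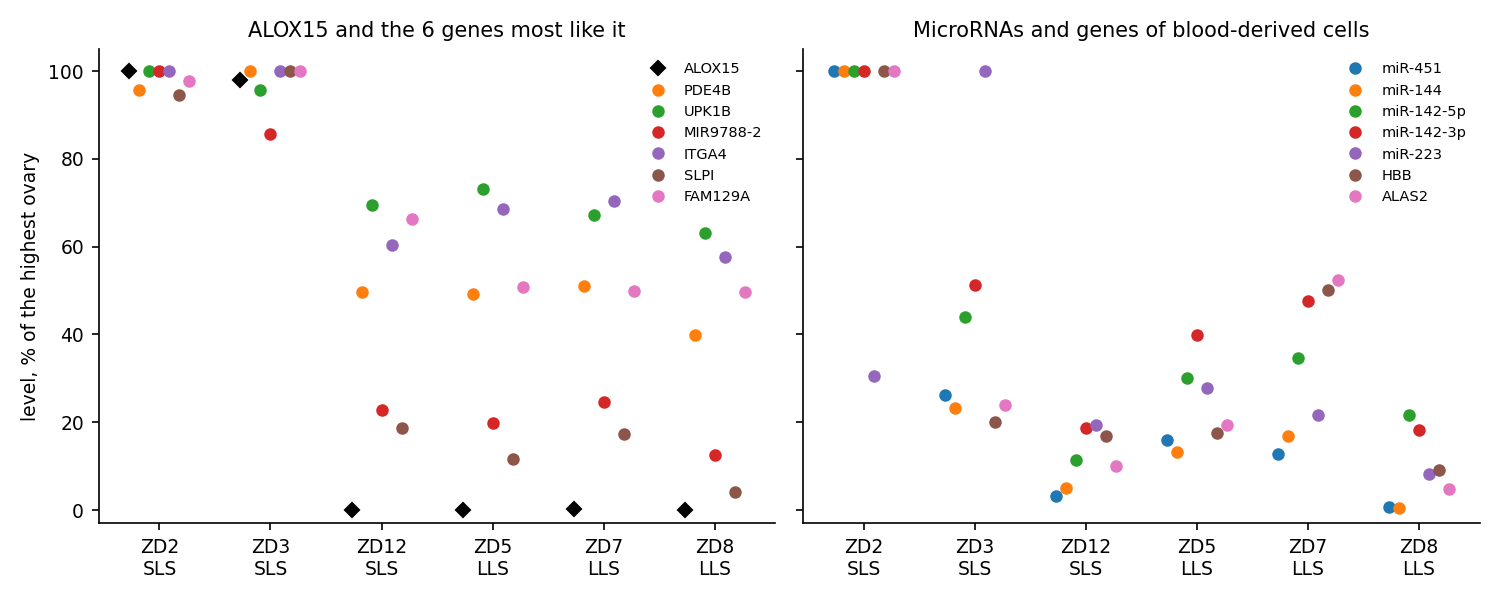
Level in each ovary as % of the highest ovary, for ALOX15 and the 6 genes most like it (left, from FPKM) and for microRNAs (from RPM) and 2 genes (from FPKM) of blood cells (right). ALOX15 drops to almost 0 outside ZD2 and ZD3, whereas the other genes on the left keep part of their level, and HBB and ALAS2 are higher in ZD7 than in ZD3.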

How the data were processed

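Gene levels were those the authors deposited as FPKM, from ribosomal RNA depleted libraries mapped to Sscrofa11.1 with HISAT2. MicroRNA levels were those the authors deposited under the name TPM, which are RPM (reads scaled to the library total). With the longest RefSeq transcript as length, whole reads could be recovered for 23477 of 23564 genes above 0 (99.6%, within 0.001 read). They could also be recovered from all 2618 microRNA values above 0, within 0.01 read. The program that counted reads is not given in the sources used here.

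LLS and SLS were compared with limma 3.58.1 (R 4.3.3, trended variance) on log2(FPKM + 1) for genes with at least 1 FPKM in 3 libraries, and a call needed a p under 0.05 after Benjamini-Hochberg adjustment and, as in the study, an absolute log2 fold change over 1. Fold changes on this scale understate low genes. Alternatives were a pseudocount of 0.1, other filters, quantile normalization, TPM, array weights, edgeR 4.0.16 and DESeq2 1.42.0 on recovered reads, and leaving out each ovary. The fits were also run on simulated data with known changes, at a narrow and a wide spread between ovaries (dispersion 0.05 and 0.3). For a log2 change of 2 and the narrow spread, limma called 189 of 198 changed genes, with 0 false calls. With the wide spread limma called 38 of 195, edgeR 27 and DESeq2 77, with 3, 0 and 30 false calls. For a log2 change of 3 these were 165 of 192, 166 and 182, with 11, 6 and 51 false. A gene without a call may therefore still differ. Single members were compared by exact permutation.

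The members and gene lists were chosen with earlier results of these data known. Named genes were the members, list genes, the 3 protein-coding neighbours on each side and the 6 genes most like ALOX15. The closing observations also name genes picked by how far ZD2 and ZD3 stood above the other ovaries. Gene positions and promoter sequence came from RefSeq Sscrofa11.1. Poisson intervals cover counting error only, since reads are not independent molecules.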

Additional observations from a re-analysis of the deposited data

How the results depend on the processing

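No member that could be tested was called in any of the 15 alternatives. These were LTA4H and PLA2G4A in 13 of them, 5 members with the 2-library filter and 7 with no filter, and ALOX15 was not tested. Of the wider pathway, 23 to 49 genes could be tested and none was called (0 to 6 at an unadjusted p under 0.05). The count over all genes was 0 in 12 of the 15 and at an unadjusted p under 0.05 it was 216 by limma, 220 by edgeR, 1252 with array weights, 709 without ZD8 and 91 without ZD2 (91 to 1252 over the alternatives). It was 13 with array weights (6 higher and 7 lower in LLS), 20 by DESeq2 (11 higher and 9 lower), and 0 to 20 when 1 ovary was left out, where only the fit without ZD8 gave calls (14 higher and 6 lower). The cause of these counts was not tested. The calls by DESeq2 may include false ones, as it gave 30 beside 77 true calls in simulated data of wide spread (log2 change 2). With array weights the median log2 difference over all genes moved from 0.02 to -0.12.

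Differences near 0 changed sign. ALOX12 went from -0.0012 to 0.00056 with TPM, and LTA4H from -0.03 to 0.12 with quantile normalization and 0.00084 by edgeR. When 1 ovary was left out, the ranges were -0.2152 to 0.0271 for ALOX5, -0.0487 to 0.0622 for ALOX12, -0.12 to 0.14 for ALOX5AP, -0.27 to 0.15 for LTA4H and -0.29 to 0.14 for LTC4S, and the cause was not tested. PLA2G4A (-0.61 to -0.16) and CYSLTR1 (0.0015 to 0.41) kept their sign. With a pseudocount of 0.1 the ALOX15 difference was -5.26. No paired analysis was possible because the ovaries of the groups carry no shared number or animal. At the lowest depth (ZD8), 3 reads of ALOX15 are 0.0252 FPKM and the upper end of the 95% Poisson interval is 0.031 FPKM, and LTC4S rests on as few as 8 reads.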

Other observations

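Among 11524 genes with at least 1 FPKM in both ZD2 and ZD3, 7 besides ALOX15 were at least 2 times higher in each of these ovaries than in every other ovary, and 0 were at least 10 times higher. These genes were named after their values were seen. SLPI led with 5.04 times, followed by MIR9788-2 (3.49 times, 119 and 102 FPKM against 14.9 to 29.2 FPKM), and DKK1 (2.94 times). DKK1, a secreted inhibitor of Wnt signalling, was at 4.41 and 2.49 FPKM in ZD2 and ZD3 and at 0 to 0.846 FPKM in the others. CHST4, a sulfotransferase, was at 2.15 and 1.98 FPKM against 0 to 0.71 FPKM. MOGAT2, an enzyme of triglyceride synthesis, was at 1.41 and 1.22 FPKM against 0.045 to 0.533 FPKM. DKK1, CHST4 and MOGAT2 stayed below 1 FPKM in the other ovaries, so they passed the limit only through ZD2 and ZD3. ITGBL1 and SCN3A, a sodium channel subunit, were the other 2, with 2.53 and 2.11 times. As ZD2 and ZD3 were singled out by their ALOX15 level, and other pairs of ovaries were not counted, these values are a description without a test.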
